A study of Mus musculus with 20 samples.

Results

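Glutathione S-transferases, UDP-glucuronosyltransferases and sulfotransferases are the 3 large enzyme groups of Phase II conjugation, and their genes were read here across liver and kidney of mice given a chemical reprogramming cocktail or its solvent. The genes were taken from the count file by symbol, as protein-coding genes named Gst with a class letter (a, m, p, t, z, k or o), Ugt1 to Ugt3 or Sult. The rule found 66 of the 57010 genes in the file, of which 24 were Gst genes, 21 were Ugt genes and 21 were Sult genes.

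Conjugation joins a lipophilic drug, hormone or waste product to a polar group, so that it dissolves in water and can leave in bile or urine. Glutathione S-transferases add glutathione and sit mainly in the cytosol, UDP-glucuronosyltransferases add glucuronic acid in the endoplasmic reticulum, and cytosolic sulfotransferases add a sulfonate group from PAPS. Hepatocytes of the liver and proximal tubule cells of the kidney are the main sites of this chemistry, and valproate, a component of the cocktail, is itself cleared largely as a glucuronide.

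Bulk polyA mRNA was sequenced from male UM-HET3 mice, which descend from a cross of several inbred strains, so that each animal carries its own mix of alleles. The 12-month-old animals received 7c for 28 days from a subcutaneous osmotic minipump. The cocktail held repsox, tranylcypromine, DZNep, CHIR99021, forskolin and TTNPB at 0.1 mg/kg/day each and valproate at 1 mg/kg/day, in a solvent of 50% DMSO and 50% PEG300 that the vehicle group received alone. Each tissue had 6 libraries from 7c mice and 4 from vehicle mice, 20 libraries in all, and only males were studied. The libraries held 28383359 to 30571119 counts in 7c liver, 31670440 to 34153084 in vehicle liver, 33003173 to 64872451 in 7c kidney and 27855849 to 39651123 in vehicle kidney. Every 7c liver library was therefore shallower than every vehicle liver library. Levels are given as CPM, counts scaled to a common library total with TMM over the 20 libraries, when a gene is compared between samples. They are given as TPM, which also divides by the exon length of the gene, when genes are compared with each other. The 12 hepatocyte markers summed to 133945 CPM or more in every liver library, and the 10 proximal tubule markers summed to 35228 CPM or more in every kidney library, so each tissue carried its labelled cell type. The library of 7c liver replicate 6 stood apart, with 781 CPM of skeletal muscle markers and 29.7 CPM of thick limb and distal tubule markers, against at most 1.55 and 0.364 CPM in vehicle liver, while its proximal tubule markers (4.90 CPM) lay within the range of the other livers. In bulk tissue, fewer cells of a type and less RNA per cell cannot be told apart.

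A gene was tested in a tissue when it had at least 10 counts in at least 50% of that tissue's 10 libraries. In liver 46 of the 66 genes passed, in kidney 42 passed, and 37 passed in both. The Gst genes were the most widely expressed, since 21 of 24 passed in both tissues, against 11 of 21 Ugt genes and 5 of 21 Sult genes. Another 15 genes passed in neither tissue (Gstt4, Ugt1a2, Ugt1a8, Ugt2a1, Ugt2a2, Sult1c1, Sult1e1, Sult2a1, Sult2a2, Sult2a4, Sult2a5, Sult2a6, Sult3a1, Sult3a2 and Sult6b2), and 6 of these had no count in any of the 20 libraries.

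Liver transcripts of the glutathione S-transferases were dominated by 3 genes of different classes. Gstp1, the pi-class enzyme, stood at 3353 ± 855 TPM (SD, n = 10 libraries), Gstm1 of the mu class at 2458 ± 307 TPM and Gsta3 of the alpha class at 1436 ± 207 TPM. They made up 34.1%, 25.3% and 14.8% of all Gst TPM in liver. Gstp1 and Gstm1 overlapped between libraries, with 2222 to 4736 TPM for Gstp1 and 1920 to 3125 TPM for Gstm1, whereas Gsta3 stayed at 1204 to 1756 TPM, below every value of the other two. The order depended on the length used. With the length of the canonical transcript in place of the union of all exons, Gsta3 rose to 3207 ± 438 TPM and came second among the members. Gstz1, which isomerises maleylacetoacetate in tyrosine breakdown, moved from 306 ± 18.8 TPM to 840 ± 58.2 TPM.

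Liver glucuronosyltransferase RNA came mostly from the Ugt2b subfamily, whose enzymes conjugate steroids and many drugs. Ugt2b5 reached 1270 ± 151 TPM, Ugt2b1 1228 ± 131 TPM and Ugt2b36 903 ± 93.6 TPM, and together with Ugt2a3 (449 ± 34.5 TPM) and Ugt2b34 (372 ± 34.6 TPM) they filled the upper ranks. Ugt2b5 (1021 to 1518 TPM) and Ugt2b1 (1054 to 1417 TPM) overlapped, and Ugt2b36 reached 1022 TPM at most. The first 3 held 25.1%, 24.3% and 17.8% of all Ugt TPM. Among sulfotransferases, Sult2a8, a hepatic bile acid sulfotransferase, stood at 824 ± 91.7 TPM or 57.1% of Sult TPM, and Sult1a1, the phenol sulfotransferase, at 368 ± 70.4 TPM or 25.5%.

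The leading Ugt and Sult genes of kidney were other members of the same families, while Gstm1 and Gstp1 ranked high in both tissues. Ugt2b38 led at 1715 ± 486 TPM (SD, n = 10) and Ugt3a1, of a small subfamily whose human counterpart uses N-acetylglucosamine as donor, followed at 1243 ± 301 TPM. These genes held 47.1% and 34.3% of all Ugt TPM in kidney, and their ranges overlapped (1042 to 2606 and 665 to 1593 TPM). With the canonical transcript length the order turned, to 1196 ± 314 TPM for Ugt3a1 and 1054 ± 313 TPM for Ugt2b38. Gstm1 came next at 703 ± 171 TPM, and Gstp1 (364 ± 97.3 TPM) and Gstm5 (351 ± 72.2 TPM) did not differ beyond their spread. Sult1d1, which conjugates catecholamines, stood at 544 ± 191 TPM and Sult1c2 at 313 ± 79.2 TPM, and they made up 60.7% and 37.0% of Sult TPM. Ugt2b37 (290 ± 176 TPM), Ugt3a2 (219 ± 75.7 TPM) and Gstt1 of the theta class (217 ± 51.1 TPM) completed the first 10. Ugt1a7c ranged from 121 ± 47.0 TPM by the exon union to 432 ± 182 TPM by the exon length it shares with no other gene, because all Ugt1a genes have the same last exons.

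**Figure D1:**
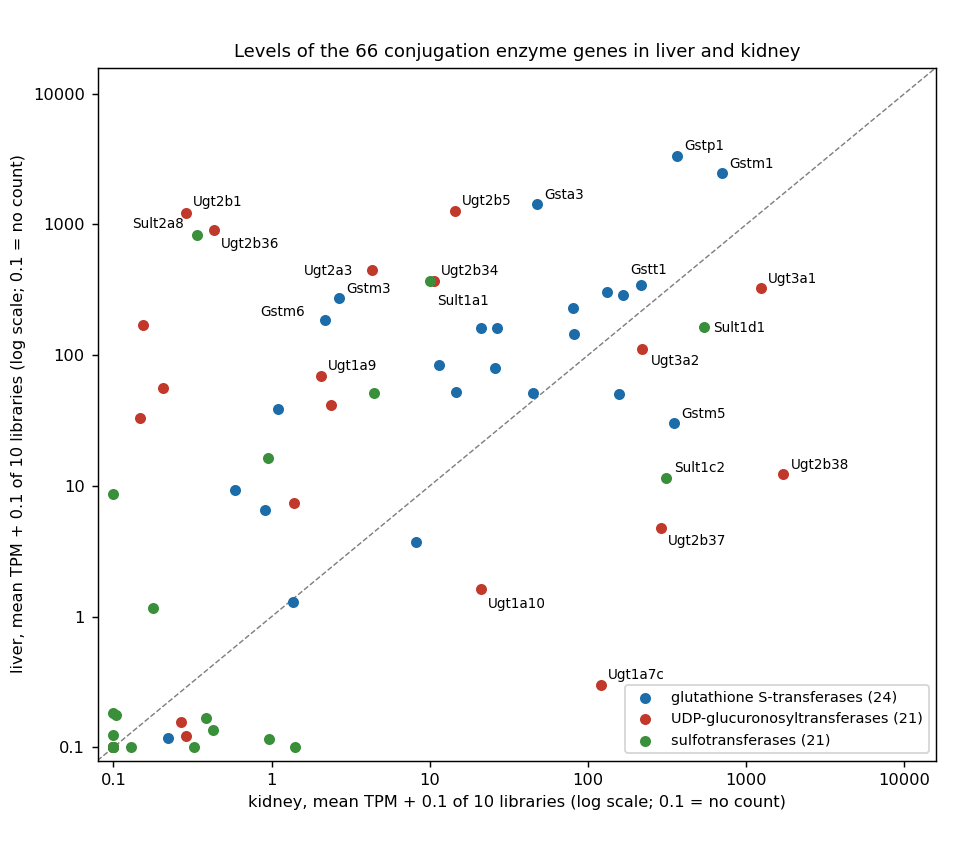
Mean TPM of each of the 66 genes in kidney (x axis) and in liver (y axis), both over 10 libraries on log scales with 0.1 TPM added, coloured by enzyme group. The dashed line marks equal levels. Ugt2b1, Ugt2b36 and Sult2a8 lie at the upper left with hardly any kidney RNA, Gstp1 and Gstm1 are high in both tissues, and Ugt2b38, Ugt2b37 and Ugt1a7c lie to the lower right.

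Nearly every member tested differed between the tissues in vehicle mice, and most were higher in liver. Of the 37 genes tested in both tissues, 26 were higher in liver and 9 higher in kidney, 35 in all or well above the 50.6% of 14163 genes called in that fit (edgeR quasi-likelihood test on 4 liver and 4 kidney libraries, Benjamini-Hochberg adjusted p under 0.05 over 18598 genes). The median log2 difference, liver over kidney, was 2.37 for the 37 members and 0.06 for all genes tested in both tissues. With the genes that passed in a single tissue included, 35 of 51 were higher in liver and 13 of 51 higher in kidney, against 24.7% and 28.2% of all 18598 genes. The single-tissue genes entered through the tissue where they were high, which favours a call, so these counts are a description.

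Among genes tested in both tissues, the 3 largest differences towards liver belonged to glucuronosyltransferases of chromosome 5. Ugt2b36 (chr5:87212668-87240422, minus strand, GRCm39) had 899, 1013, 1041 and 1052 CPM in the vehicle livers and 0.334, 0.336, 0.424 and 0.810 CPM in the vehicle kidneys, a log2 difference of 11.01 ± 0.328 (SE). Ugt2a3 differed by 7.22 ± 0.423 and Ugt2b5 by 7.05 ± 0.231 on the log2 scale. The mu-class transferases Gstm3 (7.00 ± 0.365) and Gstm6 (6.73 ± 0.383), and Sult1a1 (5.77 ± 0.237) followed, each with an adjusted p of 8.1e-08 or less by edgeR. Liver and kidney libraries did not overlap for any of these 6 genes.

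Towards kidney, again among genes tested in both tissues, the largest difference belonged to Ugt2b38 (chr5:87557801-87572062, minus strand), with 567, 708, 747 and 1164 CPM in the vehicle kidneys and 5.28, 6.27, 7.06 and 11.9 CPM in the vehicle livers (log2 −6.71 ± 0.353). Ugt2b37, of the same cluster, had a log2 difference of −4.97 ± 0.400, Sult1c2 of −4.41 ± 0.375, Ugt1a10 of −3.69 ± 0.815, Gstm5 of −3.18 ± 0.304 and Ugt3a1 of −1.57 ± 0.187. Their adjusted p lay between 3.4e-08 and 0.0027 by edgeR. For Ugt1a10 vehicle kidney replicate 3, at 1.04 CPM, lay within the vehicle liver range of 0.586 to 2.28 CPM, and limma-voom did not call it (adjusted p = 0.160). Part of the Ugt2b38 transcript is repeated elsewhere, since 37.4% of its 50-base windows occur in another gene, mostly in Ugt2b5, so the low liver value of Ugt2b38 and the low kidney value of Ugt2b5 are uncertain.

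Genes that passed in liver alone were Gsta1 (0.328 to 9.02 CPM over the 10 livers), Gsta13 (0.765 to 10.55), Ugt1a1 (43.5 to 77.3), Ugt1a5 (12.4 to 74.8), Ugt1a9 (20.1 to 175), Ugt2b1 (1018 to 1536), Ugt2b35 (190 to 338), Sult2a7 (1.03 to 7.89) and Sult2a8 (1126 to 1610). Their kidney libraries stayed at 4.65 CPM or less, and at 0.540 CPM or less for Ugt2b1. Genes that passed in kidney alone were Ugt1a7c (51.0 to 197 CPM over the 10 kidneys), Sult2a3 (0 to 0.851), Sult2b1 (0.436 to 1.83), Sult4a1 (0 to 0.467) and Sult6b1 (0 to 0.300). Ugt1a7c reached 1.20 CPM at most in liver. Gsta1 and Gsta13 share 88.7% and 92.3% of their 50-base windows with other genes and cannot be separated with confidence.

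Several clusters held genes of opposite tissue preference, whereas the 3 Gstp genes on chromosome 19 and the 4 called Gsta genes on chromosome 9 were all higher in liver. Gsta5, of the same chromosome 9 cluster, was not called in the vehicle mice (log2 −0.25 ± 0.633). In the 7c mice it was higher in kidney (−1.04 ± 0.290, adjusted p = 0.0052 by edgeR). On chromosome 5, Ugt2b34, Ugt2b1, Ugt2b35, Ugt2b36 and Ugt2b5 were all higher in liver, the next gene Ugt2b37 was higher in kidney, Ugt2a3 was again higher in liver and Ugt2b38 again higher in kidney. On chromosome 3, Gstm5 was higher in kidney while the other 6 Gstm genes of the cluster were higher in liver. On chromosome 1, where the Ugt1a genes have separate first exons and common last exons, Ugt1a10 and Ugt1a7c were higher in kidney and Ugt1a9, Ugt1a6b, Ugt1a6a, Ugt1a5 and Ugt1a1 higher in liver. Sult1d1 (log2 −1.31 ± 0.235) lay beside the liver-high Sult1b1 (3.90 ± 0.209), and on chromosome 10 Gstt2 (−1.28 ± 0.234) was higher in kidney and Gstt1 (1.08 ± 0.251) in liver.

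**Figure D2:**
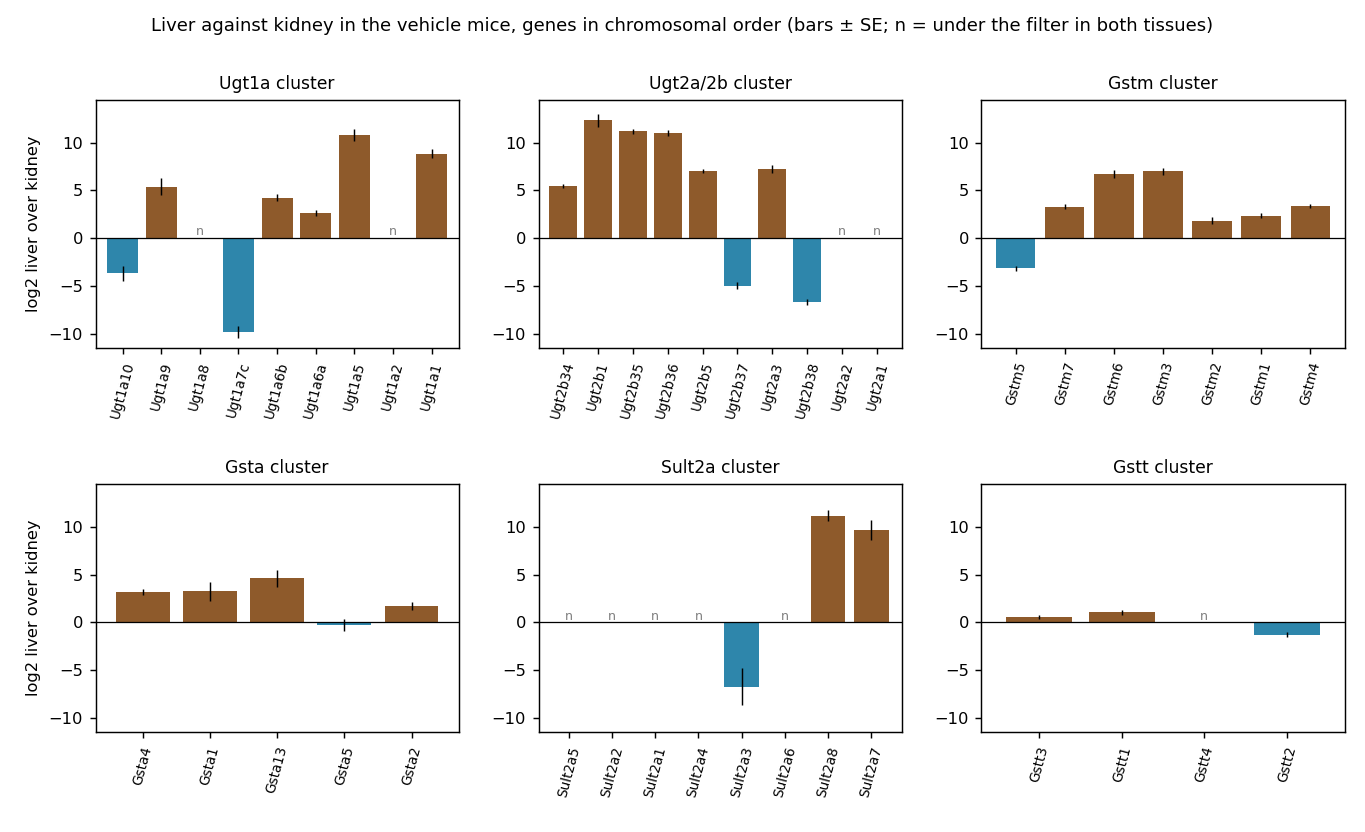
Log2 difference of liver over kidney in the vehicle mice (bars, with SE; 4 libraries a tissue) for 6 gene clusters, with the genes of each in chromosomal order. Brown bars are higher in liver, blue bars higher in kidney, and n marks genes that passed the filter in neither tissue. Ugt2b37 and Ugt2b38 point down among neighbours that point up, as do Gstm5, Ugt1a10 and Ugt1a7c.

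The same preferences were found in the 7c mice, which share no library with the vehicle comparison. There 35 of 51 genes were higher in liver and 11 of 51 higher in kidney, against 31.0% and 33.8% of all genes. Of the 37 genes tested in both tissues 34 were called, against 63.8% of all genes. Of the 37 genes 33 were called in both treatment groups in the same direction (89.2%), where 48.5% of all 14163 genes were and 6869 of the 6870 called in both had the same direction, so a shared direction is not particular to the members. The genes called in only a single treatment group were Ugt1a10, Gsta5, Sult4a1 and Ugt3a2, and the difference between treatments was not past the threshold for any of those tested. In the 7c mice Ugt1a10 had a log2 difference of −2.56 ± 1.10 that rested on 1 mouse, since it was 0.61 ± 0.434 without 7c replicate 3.

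The start regions of Ugt2b36 and Ugt2b38 are shown because, among genes tested in both tissues, they had the largest differences towards liver and towards kidney, and both lie in the chromosome 5 cluster. Each is the 250 bases before the start of the canonical transcript, read from GRCm39 on the strand of the gene, and the capitals mark TATAA on either strand. Ugt2b36 covers chr5:87240423-87240672 and Ugt2b38 covers chr5:87572063-87572312, both on the minus strand.
Ugt2b36: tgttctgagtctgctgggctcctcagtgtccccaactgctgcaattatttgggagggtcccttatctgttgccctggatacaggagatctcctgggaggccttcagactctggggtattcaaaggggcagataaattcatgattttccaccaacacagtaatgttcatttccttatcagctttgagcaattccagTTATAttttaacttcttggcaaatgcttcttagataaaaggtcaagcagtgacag
Ugt2b38: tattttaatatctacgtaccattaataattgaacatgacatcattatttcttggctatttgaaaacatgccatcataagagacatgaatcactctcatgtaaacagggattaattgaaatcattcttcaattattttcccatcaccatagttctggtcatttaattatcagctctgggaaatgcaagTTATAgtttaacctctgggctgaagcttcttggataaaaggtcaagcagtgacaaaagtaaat
The TTATA letters lay at −55 to −51 from the start in Ugt2b36 and at −63 to −59 in Ugt2b38. The longest run of bases the regions share was 22 bases (gataaaaggtcaagcagtgaca), which began at −23 in Ugt2b36 and at −31 in Ugt2b38.

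In the comparison of 7c with vehicle, no conjugation enzyme gene passed the threshold in either tissue. In liver 0 of 46 genes were called (edgeR quasi-likelihood test, 6 against 4 libraries), where the same fit called 0.00666% of all 15012 genes, and 2 of 46 had an unadjusted p under 0.05, against 3.76% of all genes. DESeq2 and edgeR's likelihood ratio test also called none of them, and their share of calls over all liver genes is not given here. The median log2 fold change was 0.05 for the 46 genes (−0.01 to 0.09 when each library was left out, negative without 7c replicate 1 or vehicle replicate 4) and 0.00 for all genes, 26 genes had a positive and 20 a negative value, and 40 of 46 lay within 0.5 of 0 on the log2 scale. The summed level of the 66 genes was 16888 ± 1156 CPM (SD, n = 6) in 7c liver and 17272 ± 1050 CPM (n = 4) in vehicle liver, and these ranges overlapped.

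Among the liver genes of lowest p, Ugt1a1, the bilirubin-conjugating enzyme, had 56.8 to 77.3 CPM with a median of 71.6 in the 7c livers and 43.5, 49.4, 58.5 and 67.1 CPM in the vehicle livers. The groups overlapped, with a log2 fold change of 0.30 ± 0.135 (SE), an adjusted p of 1.0 by edgeR and p = 0.0429 by the exact two-sided permutation test over the libraries, whose smallest possible value is 0.0048. Without 7c replicate 6, the library with the high muscle markers and the highest Ugt1a1 and Ugt1a5 levels, the log2 fold changes were 0.27 for Ugt1a1 and 0.52 for Ugt1a5. Gstp1 went the other way, from 1495, 2114, 2418 and 2477 CPM in vehicle to 1296 to 2162 CPM with a median of 1800 in 7c (log2 −0.35 ± 0.175, exact permutation p = 0.171). Gstp2, a close copy that shares 71.6% of its 50-base windows with other genes, mainly Gstp1, had a log2 fold change of −0.46 ± 0.212 (exact permutation p = 0.119) that was −0.25 without vehicle replicate 4, and reads of these genes may not be separable. Ugt1a5 (0.73 ± 0.361), Ugt1a9 (−1.096 ± 0.606) and Gsto2, an omega-class transferase (0.99 ± 0.582), had larger values with larger errors and exact permutation p of 0.148, 0.162 and 0.0619. Gsto2 moved to 1.51 without vehicle replicate 3 and to 0.65 without vehicle replicate 2. No liver gene of the 46 had all 7c libraries on the same side of all vehicle libraries, where 0.293% of all genes lay wholly below and 0.373% wholly above.

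In kidney 0 of 42 genes were called, against 0.0% of 17749 genes, and 1 of 42 had an unadjusted p under 0.05, against 2.61% of all genes. Here too DESeq2 and the likelihood ratio test called none of the 42, although over all genes they called 18 and 14. The median log2 fold change was −0.06, with 16 positive and 26 negative values, and 36 of 42 lay within 0.5 of 0. Over all 17749 kidney genes the median was −0.01, with 8695 positive and 9054 negative values, and 15963 lay within 0.5 of 0. Without 7c replicate 5 and vehicle replicate 2, the kidney libraries described below, the median was 0.13. With each library left out singly it ranged from −0.11 to 0.19, and the positive value was the one without vehicle replicate 2. Summed levels were 4436 ± 245 CPM in 7c kidney and 4622 ± 400 CPM in vehicle kidney.

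Ugt2b36 was the kidney gene of lowest p, and the only 1 of the 42 tested there whose 7c and vehicle libraries did not overlap. Its 7c kidneys had 0.122, 0.0488, 0, 0.168, 0.0250 and 0.267 CPM and its vehicle kidneys 0.810, 0.336, 0.424 and 0.334 CPM, which rest on 0 to 14 and 12 to 39 counts. All vehicle kidneys reached the 10 counts of the filter and most 7c kidneys did not. Ugt2b36 thus entered mainly through the group where it was high, which favours a low p and a lack of overlap. The log2 fold change was −2.13 ± 0.707 (edgeR adjusted p = 0.997), and the exact two-sided permutation test gave p = 0.0143. Of all genes 0.366% had every 7c kidney below every vehicle kidney and 0.349% every 7c kidney above, so 1 of 42 members below and 0 of 42 above are few genes to read. Ugt2b35, which was under the filter in kidney, also had every 7c kidney (0 to 0.0840 CPM, 0 to 4 counts) below every vehicle kidney (0.0849 to 0.167 CPM, 4 to 6 counts). Relative to liver, the Ugt2b36 levels were 106 ppm on average in 7c mice and 481 ppm in vehicle mice.
Some other liver genes had lower means in the 7c kidneys, none past the threshold by the quasi-likelihood test used here. The study's own edgeR analysis listed some genes for 7c kidney, among them Ces1c, Mup3, Cyp2c29 and F2 as lower and the adipocyte marker Cidec as higher. The defining hepatocyte markers Alb (13.1 ± 6.72 against 27.5 ± 7.19 CPM) and Apoa1 (1.16 ± 0.673 against 3.81 ± 3.18 CPM), and the liver P450 genes Cyp1a2 (0.0997 ± 0.0946 against 0.451 ± 0.282 CPM) and Cyp3a11 (0.366 ± 0.423 against 1.71 ± 0.463 CPM), had lower means in 7c kidney. Of the 12 hepatocyte markers 10 had a negative log2 fold change (median −0.72), 4 had an unadjusted p under 0.05, none was at 0 in every library of a group, and their sum overlapped between groups (131 to 340 and 221 to 342 CPM). The liver-high members Ugt2b5 (8.33 and 8.63 CPM) and Gsta3 (65.9 and 67.8 CPM) had like means in 7c and vehicle kidneys, whereas Sult2a8 (0.0846 ± 0.154 and 0.588 ± 0.469 CPM) and Ugt2b1 (0.0551 ± 0.0738 and 0.240 ± 0.245 CPM), both under the filter in kidney, had lower means in 7c with overlapping ranges. Adipocyte markers ran the other way, with 66.04 to 174 CPM summed over 8 genes in 7c kidney and 49.2 to 76.6 CPM in vehicle kidney, and 7 of 8 had an unadjusted p under 0.05. The part of these other cell types in the kidney result was not tested.

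The other kidney genes of lowest p were Ugt1a6a, a phenol-conjugating enzyme (log2 −0.81 ± 0.391, exact permutation p = 0.0667), Sult1a1 (0.29 ± 0.187), Ugt2b37 (0.62 ± 0.403), Ugt2b34 (−0.39 ± 0.252) and Ugt1a10 (−1.75 ± 1.27). Ugt2b37 reached 310 CPM in 7c replicate 3 and 34.3 CPM in vehicle replicate 3, and the other 8 kidneys lay between 83.5 and 168 CPM. Its log2 fold change was 0.28 without that 7c kidney and 0.34 without that vehicle kidney. Sult1a1 moved to 0.47 without vehicle replicate 2 and to 0.19 without vehicle replicate 3, and Ugt2b34 to −0.60 without 7c replicate 3 and to −0.25 without vehicle replicate 3. Of the Ugt1a6a transcript, 98.45% of 50-base windows occur in other genes, so its small kidney counts are uncertain.

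**Figure D3:**
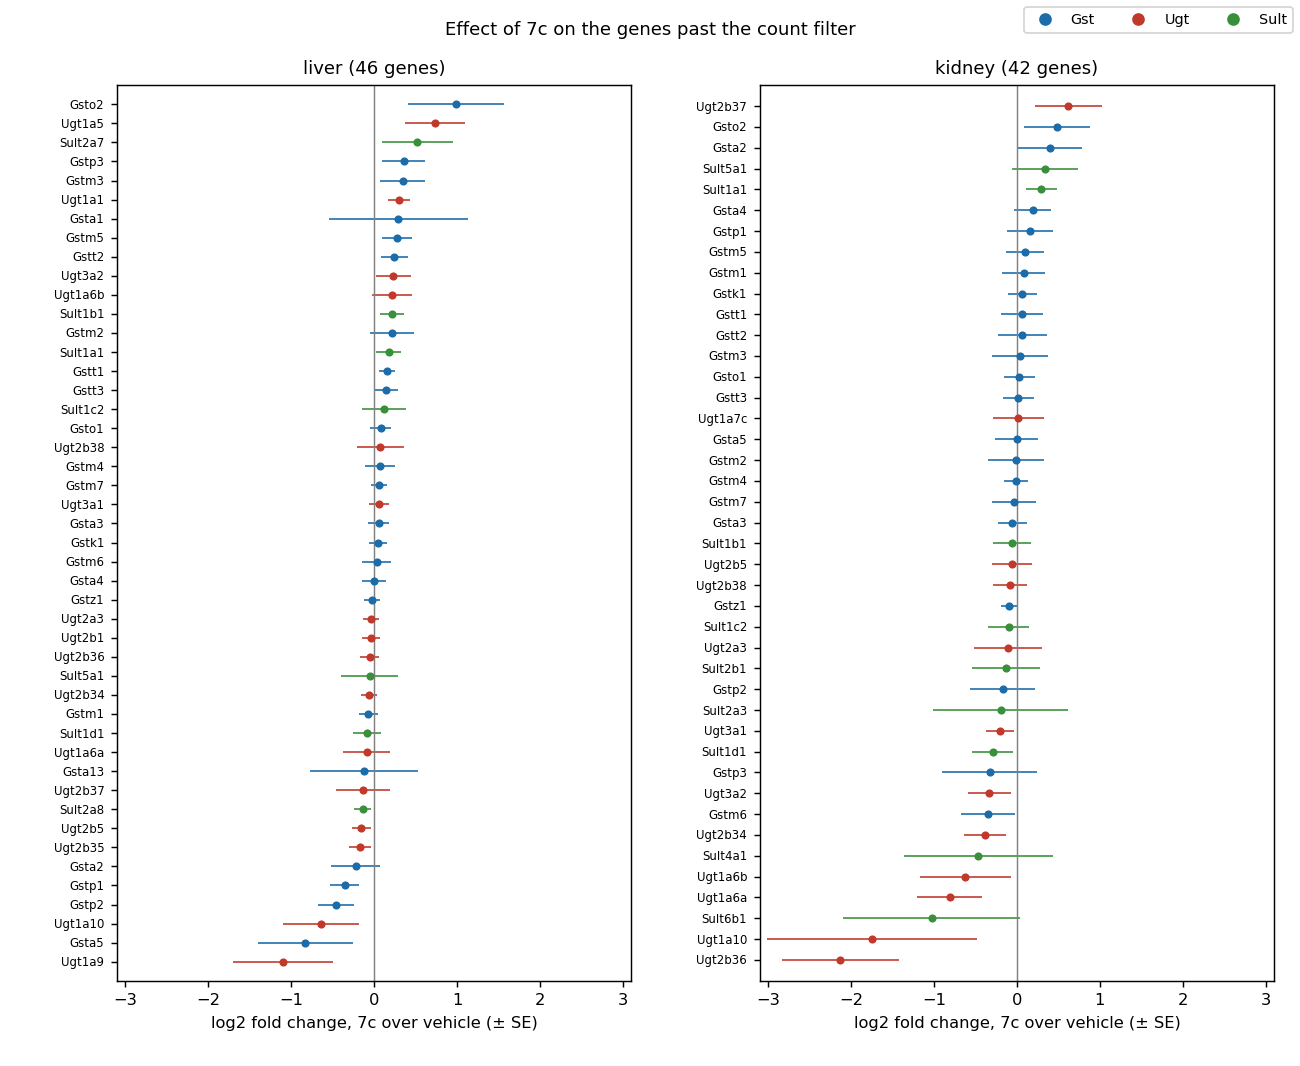
Log2 fold change of 7c over vehicle with its SE (edgeR, 6 against 4 libraries a tissue) for the 46 genes tested in liver and the 42 tested in kidney, sorted by value and coloured by enzyme group. Most genes lie within 0.5 of 0, and Ugt1a9 in liver and Ugt1a10 and Ugt2b36 in kidney lie lowest.

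Whether 7c acted differently in the 2 tissues was tested with an interaction term over all 20 libraries. In this fit 0 of 37 genes passed, against 0.00706% of 14163 genes, and 1 of 37 had an unadjusted p under 0.05, against 2.49%. That gene was again Ugt2b36, whose log2 difference between the tissue effects was 2.03 ± 0.495 (edgeR adjusted p = 0.446). It passed the kidney filter mainly through the vehicle kidneys, as said above. DESeq2 and edgeR's likelihood ratio test did call it, with adjusted p of 6.8e-05 and 2.7e-04, so its call depended on the tool. The share of all genes that these tools called in this fit is not given here, so the call cannot be set against it. In liver Ugt2b36 had 752 to 1170 CPM with a median of 999 in 7c mice and 899 to 1052 CPM in vehicle mice. Ugt3a2 (0.55 ± 0.357) and Gstp1 (−0.52 ± 0.362) came next, and each moved with single mice. Ugt3a2 was 0.30 when 7c replicate 5 was left out and 0.35 when vehicle replicate 1 was. Gstp1 was −1.03 when vehicle replicate 2 was left out, and −0.31 and −0.33 when 7c replicate 5 or vehicle replicate 4 was.

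Ugt1a9 and Ugt1a10, which had large negative values with large errors, each fell into a high and a low set of libraries. In liver Ugt1a9 had 33.9, 21.6, 175, 35.8, 32.5 and 20.1 CPM in 7c replicates 1 to 6 and 147, 159, 25.7 and 123.2 CPM in vehicle replicates 1 to 4. In kidney Ugt1a10 had 0.390, 0.391, 31.999, 0.609, 0.300 and 0.973 CPM in the 7c mice and 30.8, 15.4, 1.04 and 30.1 CPM in the vehicle mice. The high libraries carried the same numbers in both tissues, namely 7c replicate 3 and vehicle replicates 1, 2 and 4.
Kidney Ugt1a9 was low but split in the same way, with 4.01, 4.65, 1.68 and 4.45 CPM in those libraries and 0.0733 CPM or less in the other 6. Liver Ugt1a10 was low throughout and also highest in those mice, at 1.62, 2.28, 1.86 and 1.28 CPM against 0.499 to 1.22 CPM in the other 6. The high state was thus seen in 1 of 6 mice given 7c and 3 of 4 given vehicle. Since 72.5% of the 50-base windows of Ugt1a9 and 66.2% of those of Ugt1a10 occur in other genes, and the genes share windows with each other, the low kidney Ugt1a9 and low liver Ugt1a10 values may hold reads of the other gene and are uncertain. Without 7c replicate 3 the log2 fold change of Ugt1a9 in liver went from −1.096 to −2.005 ± 0.391 (edgeR adjusted p = 0.583), and that of Ugt1a10 in kidney from −1.75 to −5.18 ± 0.762 (adjusted p = 0.130). In kidney Ugt1a6a was also highest in those mice, at 2.18, 2.87, 2.44 and 2.37 CPM, with the next mouse at 2.17 CPM. Kidney Ugt1a6b, at 4.37, 3.51, 1.25 and 3.12 CPM, was above the highest of the other 6 (1.63 CPM) in 3 of the 4. Of their 50-base windows 98.45% and 86.1% occur in other genes, so these low values are uncertain too. Ugt1a7c did not follow the split, at 129, 128, 51.0 and 105 CPM in the kidneys of the 4 mice and 74.0 to 197 CPM in the other 6. The mice are genetically heterogeneous, and whether an allele or the treatment goes with the split was not tested.

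**Figure D4:**
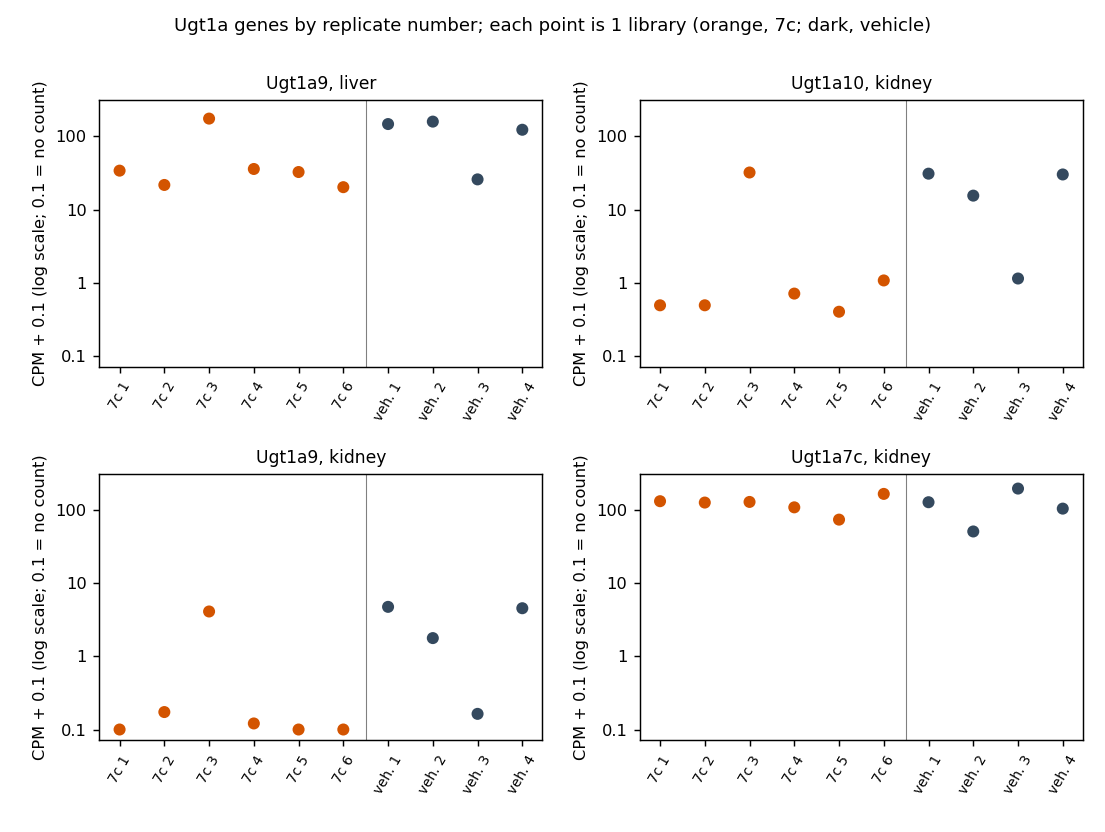
CPM plus 0.1 on a log scale (y axis) of Ugt1a9 in liver, and of Ugt1a10, Ugt1a9 and Ugt1a7c in kidney, for each library by treatment and replicate number (x axis). The first 3 panels are high in 7c replicate 3 and vehicle replicates 1, 2 and 4, and Ugt1a7c stays between 51.0 and 197 CPM in every kidney.

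The start regions of these Ugt1a genes are shown because Ugt1a9 and Ugt1a10 were high in the same 4 mice and Ugt1a7c was not. Each is the 250 bases before the canonical start on the plus strand of GRCm39, at chr1:87998200-87998449 for Ugt1a9, chr1:87982883-87983132 for Ugt1a10 and chr1:88022476-88022725 for Ugt1a7c. Capitals mark the longest run that Ugt1a9 and Ugt1a10 share or, in Ugt1a7c, TATAA.
Ugt1a9: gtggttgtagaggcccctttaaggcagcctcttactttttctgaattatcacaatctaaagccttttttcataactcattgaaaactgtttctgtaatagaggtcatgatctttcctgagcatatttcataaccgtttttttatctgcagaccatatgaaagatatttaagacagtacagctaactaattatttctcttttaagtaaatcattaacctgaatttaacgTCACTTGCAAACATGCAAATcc
Ugt1a10: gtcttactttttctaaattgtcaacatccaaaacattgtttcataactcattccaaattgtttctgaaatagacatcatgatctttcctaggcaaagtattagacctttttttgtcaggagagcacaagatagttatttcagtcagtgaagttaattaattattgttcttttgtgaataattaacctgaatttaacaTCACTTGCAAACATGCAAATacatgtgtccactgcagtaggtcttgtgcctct
Ugt1a7c: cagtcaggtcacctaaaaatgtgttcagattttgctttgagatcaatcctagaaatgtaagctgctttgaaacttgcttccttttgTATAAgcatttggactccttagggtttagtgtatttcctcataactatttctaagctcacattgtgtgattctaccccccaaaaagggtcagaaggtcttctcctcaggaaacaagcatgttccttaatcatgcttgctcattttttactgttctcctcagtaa
The run was 20 bases long and began at −22 from the start in Ugt1a9 and at −53 in Ugt1a10. Neither shared a run of more than 8 bases with Ugt1a7c.

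Over the 250 bases before all starts, TATAA was found on either strand in 47.0% of the 66 genes and in 21.6% of 21664 protein-coding genes. In the vehicle mice it was found in 31.4% of the 35 members called higher in liver and 53.9% of the 13 called higher in kidney. The other members were not called between the tissues or not tested. The letters of the antioxidant response element (TGACNNNGC) were found in 3.03% of the members and 9.67% of all genes, those of the xenobiotic response element (GCGTG) in 9.09% and 31.2%, and those of an HNF4-type site (CAAAGTCCA) in 0 of 66 and 0.374%. A match is a description of these letters in this window and not a site.

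In several kidney libraries of both treatment groups the glutathione S-transferases were high where the glucuronosyltransferases were low, or the reverse. In 7c replicate 5 and vehicle replicate 2 the summed Gst level was 2262 and 2519 CPM, against 1333 to 1978 CPM in the other 8 kidneys, and the summed Ugt level was 1600 and 1787 CPM, against 1926 to 3040 CPM. Of the 21 Gst genes tested in kidney, 17 and 21 were above their mean over the 10 kidneys in these libraries, and of the 12 Ugt genes 1 and 3 were. In 7c replicate 4 it was 20 of 21 and 0 of 12. In 7c replicates 1, 2, 3 and 6 the numbers were 10 and 6, 15 and 5, 4 and 11, and 3 and 5. In vehicle replicates 1, 3 and 4 they were 3 and 11, 4 and 7, and 5 and 10. Not every kidney showed the opposition, since in 7c replicate 6 both groups were mostly low.
The kidney libraries 7c replicates 4 and 5 and vehicle replicate 2 held more RNA from short genes. The level of transcripts under 1000 bases minus that of transcripts over 4000 bases, as a median log2 deviation from the kidney mean, was 0.58 and 0.56 in 7c replicate 5 and vehicle replicate 2, 0.24 in 7c replicate 4 and −0.33 to 0.06 in the other 7. Markers of several cell types were also extreme there. Proximal tubule markers summed to 63617 and 57815 CPM, against 35228 to 46962 CPM in the other 8. Within each treatment group these kidneys also had the highest sums of collecting duct markers (379 and 338 CPM) and hepatocyte markers (340 and 342 CPM). Blood cell markers were highest there too (1809 and 1053 CPM), with 1799 CPM in 7c replicate 1. Thick limb and distal tubule markers were lowest there (2663 and 2766 CPM). The Gst genes tested in kidney had a median transcript length of 1380 bases and the Ugt genes of 2407 bases. These libraries were singled out after their values were seen, and the part of transcript length or of these cell types in the pattern was not tested. In liver the length measure spanned −0.23 to 0.32, and the Gst genes above their means numbered 2 to 21 of 23 in a library.

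**Figure D5:**
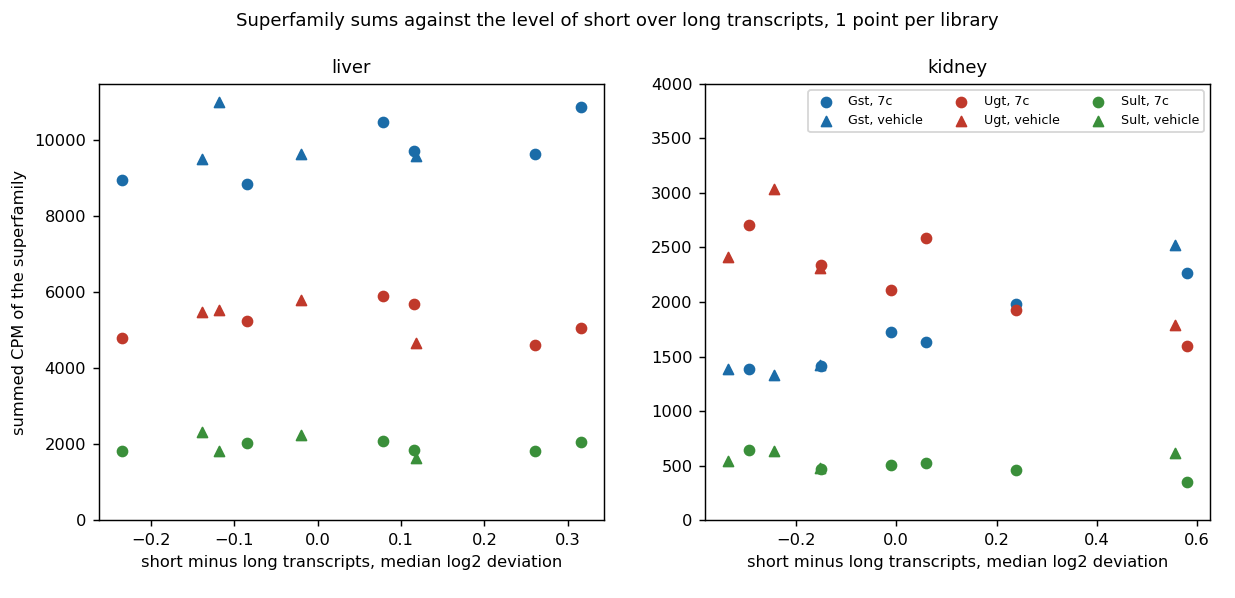
Summed CPM of the Gst, Ugt and Sult genes (y axis) against the median log2 deviation of short minus long transcripts (x axis), 1 point per library and group, circles for 7c and triangles for vehicle. In kidney the 2 libraries at the right, 7c replicate 5 and vehicle replicate 2, have the highest Gst and the lowest Ugt sums.

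The members varied more between mice in kidney than in liver, and more than the median kidney gene. The SD of log2 CPM within a treatment had a median of 0.49 over the 42 members and 0.35 over all kidney genes, and of 0.31 and 0.30 in liver. Ugt1a10 was the most variable member in kidney (SD 2.40), and Gsta1 (1.66), Gsta13 (1.22) and Ugt1a9 (1.18) in liver. The most even members were Gstt1 in liver (SD 0.13) and Gstz1 in kidney (0.10).

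Liver and kidney libraries with the same treatment and number behaved as pairs, so each gene was followed over the 10 mice after its treatment means were removed. The median correlation between liver and kidney was −0.03 over 37 members and 0.03 over 14163 genes. Gsto1, which reduces dehydroascorbate and arsenic species, had the highest value, with Pearson's r of 0.82 (exact permutation p = 0.0034) and Spearman's rho of 0.84 (exact permutation p = 0.0041), and r was 0.70 without the 2 mice farthest from the median. The adjusted values over the 37 relations, 0.0910 for r and 0.150 for rho by the exact permutation test, did not pass the threshold.
Sult1c2 had r of 0.68 and rho of 0.59 (exact permutation p = 0.0564 and 0.0747, adjusted 0.348 and 0.439, r = 0.64 without the 2 farthest, and r = 0.37 without vehicle replicate 2). Ugt2b36 had r of 0.66 and rho of 0.66 (exact permutation p = 0.0947 and 0.0831, adjusted 0.438 and 0.439, r = 0.62 without the 2 farthest). At the other end Sult5a1 had r of −0.82 and rho of −0.67 (exact permutation p = 0.0049 and 0.0400, adjusted 0.0910 and 0.439, r = −0.75 without the 2 farthest), and Gsto2 had r of −0.75 and rho of −0.65 (exact permutation p = 0.0398 and 0.0958, adjusted 0.294 and 0.443, r = −0.87 without the 2 farthest). Without vehicle replicate 3, r of Gsto2 was −0.97 (exact permutation p = 2.3e-04, adjusted 0.0086), the only value past the threshold when any mouse was left out. Ugt1a10 ranked with the highest, but its kidneys fell into separate clusters, so no pooled r is given, and the relation within the 6 mice of low level was not tested.

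The supply and partner genes of the pathway were read from 8 lists, and none of their genes passed the threshold for 7c in either direction in either tissue by edgeR's quasi-likelihood test. Glucuronate supply had 7 genes tested in liver and 8 in kidney. The lowest p there belonged to Gusb, the glucuronidase that undoes the conjugation (log2 0.19 ± 0.120), and the nucleotide sugar transporter Slc35a3 (0.18 ± 0.114) in liver, and in kidney to Ugp2, which makes UDP-glucose (−0.15 ± 0.103), and Ugt8a (−0.41 ± 0.304). PAPS supply and desulfation had 12 genes tested in each, led by sulfite oxidase Suox (0.15 ± 0.0975) and the PAPS synthase Papss1 (0.18 ± 0.119) in liver and by Tpst1 (0.29 ± 0.179) and Papss2 (−0.17 ± 0.136) in kidney. None of these 2 lists had an unadjusted p under 0.05.

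Glutathione supply and turnover had 15 genes tested in liver and 16 in kidney. In liver 2 had an unadjusted p under 0.05, the glutathione peroxidase Gpx1 (108 ± 6.71 to 135 ± 16.5 CPM, log2 0.29 ± 0.104) and Gclm, the modifier subunit of glutathione synthesis (279 ± 37.8 to 241 ± 21.1 CPM, log2 −0.24 ± 0.0990). In kidney the dipeptidase Dpep1 (0.27 ± 0.195) and the catalytic subunit Gclc (−0.31 ± 0.226) had the lowest p. The membrane-bound and other glutathione transferases had 9 and 10 genes tested, with Ptges (0.56 ± 0.549) and Ptges2 (0.09 ± 0.0980) first in liver and Ltc4s (0.64 ± 0.408) and Ptges (0.19 ± 0.127) first in kidney.

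The 20 genes of methyl, acetyl and amino acid conjugation were all tested in both tissues. Nnmt, which methylates nicotinamide, had 3.18 to 88.9 CPM in 7c liver and 2.77 to 40.6 CPM in vehicle liver (log2 1.38 ± 0.837), and Baat, which joins bile acids to taurine and glycine, had a log2 fold change of −0.15 ± 0.100. In kidney Acsm2 (−0.18 ± 0.0975) and Hnmt, the histamine methyltransferase (−0.24 ± 0.133), came first. The conjugate exporters had 11 genes tested in each tissue, led by Abcc4 (0.96 ± 0.477) and Abcc6 (0.19 ± 0.0957) in liver and by Abcg2 (−0.23 ± 0.130) and Abcc6 (−0.21 ± 0.125) in kidney.

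The regulators had 26 genes tested in liver and 24 in kidney, and none had an unadjusted p under 0.05. Mafg (0.14 ± 0.0917) and the retinoic acid receptor Rara (−0.20 ± 0.151), of the receptor family that TTNPB activates, came first in liver, and Ppara (−0.49 ± 0.241) and Cux2 (0.47 ± 0.249) in kidney. The sentinel genes of the xenobiotic sensors AhR, CAR and PXR and of the stress factor NRF2 had 13 tested in each tissue. In liver 2 had an unadjusted p under 0.05, Gclm as above and Por, the P450 reductase (147 ± 20.6 to 188 ± 37.4 CPM, log2 0.33 ± 0.142). In kidney the 2 were Cyp1a2 and Cyp3a11, at the trace levels given above (log2 −2.17 ± 0.702 and −2.21 ± 0.735).

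Between the tissues of vehicle mice these lists were split. Genes that passed the filter in a single tissue were included, and they entered through the tissue where they were high. This favours a call, so the counts are a description. Of 26 regulators tested 15 were higher in liver and 3 higher in kidney, where 24.7% and 28.2% of all 18598 genes were. Nr1i3, the gene of CAR, had 34.0 CPM in liver and 0.0264 CPM in kidney, Ahr 40.2 and 3.47 CPM, and Nr1i2, the gene of PXR, 76.0 and 6.51 CPM, as means of 4 libraries. Hnf4a did not pass the threshold (746 and 803 CPM). Of the exporters 6 of 13 were higher in liver and 7 of 13 higher in kidney, to be read against the same shares of all genes. Only 11 exporters passed the filter in each tissue, so some of the 13 entered through a single tissue.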

How the data were processed

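Polyadenylated RNA of liver and kidney was sequenced as stranded libraries. The authors deposited raw counts per gene, made with STAR 2.7.11b and featureCounts 2.0.6 on GRCm39, as the methods and the submitters' processing notes say. The annotation release, the strand setting and the treatment of reads on shared exons or repeated sequence were not given in the sources used here. Library totals ran from 27855849 to 64872451 counts. The p-values measure the spread between these libraries. No count column was left unmapped.

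The test took genes that reached 10 counts in 50% or more of the libraries of a tissue and used edgeR 4.0.16 (R 4.3.3) with the quasi-likelihood F-test on TMM-normalized counts, with Benjamini-Hochberg adjustment over all genes tested and a threshold of 0.05. The comparisons, all without covariates, were 7c with vehicle (liver and kidney apart), liver with kidney within each treatment, and the interaction over all 20 libraries. Log2 fold changes carry their SE. TPM used the exon union length of GENCODE vM39 (GRCm39), which has 56310 of the 57010 genes. Start regions, cluster positions and 50-base windows came from the same annotation and genome, and motifs were sought on both strands. Scripts were tested on simulated data. Other settings tried were DESeq2 1.42.0, the likelihood ratio test of edgeR, limma-voom with limma 3.58.1, scaling by RLE, other filters, a replicate block, other lengths and leaving out each replicate. The canonical length and the joint removal of 2 kidney libraries were added after the values were seen.

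Groups came from the sample labels, and nothing else pairs a liver with a kidney. Same-numbered liver and kidney libraries of a treatment were checked by the correlation of their deviations from the group means. Over 14163 genes it was 0.013 to 0.259 and the highest among all numbers in 8 of 10 cases. Over the 500 most variable genes it was 0.196 to 0.477 and no other number exceeded 0.0957, so they were treated as pairs.

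The members and lists were chosen with earlier results of these data known. Genes were named by rule: the 10 highest TPM per tissue, the 6 lowest p for 7c per tissue, the 6 largest tissue differences in each direction among genes tested in both tissues together with the genes tested in 1 tissue only, the 3 lowest p of the interaction, the 4 highest and 2 lowest correlations over mice, the 2 lowest p per list and tissue, genes whose groups did not overlap, and genes under the filter. Others were named after their values were seen. Marker lists of hepatocytes, proximal tubule and adipocytes are described beside the results they move with.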

Additional observations from a re-analysis of the deposited data

Results flagged for a closer look

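Members named for a high level, a low p, a large tissue difference or a correlation were read in each group of a tissue where they passed the filter. The farthest library was compared with the nearest other library of its group by Dixon's test on log2 CPM. Of 106 groups 9 (8.49%) held a far library, where chance gives about 5%. These members were picked by their values, so the share does not describe all members.

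In liver, Ugt1a9 was far in 7c replicate 3, at 175 CPM against 35.8 CPM in the next library, and in vehicle replicate 3, at 25.7 CPM against 123.2 CPM. Ugt1a10 in kidney was far in the same 7c animal number, at 31.999 CPM against 0.973 CPM. Ugt1a6a was low in vehicle liver replicate 4, at 8.98 CPM against 15.4 CPM.

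Vehicle kidney replicate 2 was far for 4 genes, with 722 CPM of Gstm1 against 332 CPM, 175 CPM of Gstm5 against 83.6 CPM, 249 CPM of Gstt1 against 118 CPM and 336 CPM of Sult1c2 against 153 CPM. Ugt3a1 was low in 7c kidney replicate 5, at 654 CPM against 967 CPM. These are the kidney libraries with the highest level of short transcripts, whose part was not tested.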

How the results depend on the processing

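No setting gave a member called for 7c in liver or kidney, among 17 liver and 18 kidney alternatives. When each replicate was left out, the members called between the tissues numbered 44 to 47 in vehicle mice and 46 to 47 in 7c mice, against 48 and 46 with all. The interaction count was 1 under DESeq2 and 1 under the likelihood ratio test, in place of 0, and that gene was Ugt2b36. The correlation over mice gave 0 to 1 gene when each mouse was left out. With the replicate block the counts were 0 in liver, 0 in kidney, 46 in vehicle mice, 46 in 7c mice and 0 for the interaction, so the pairing moved no count by more than 1.5 times. Within a tissue, same-numbered 7c and vehicle libraries share only a number (correlations of −0.063 to 0.023, and 0.301 for kidney number 3).

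Of the alternative fold changes of named genes, 545 kept their direction and side of the threshold, 5 moved past it (3 of Ugt1a10 in 7c mice, 2 of Ugt2b36 in the interaction), 1 fell short of it (Ugt1a10 in vehicle mice, −3.005 by limma-voom) and 1 turned. Ugt1a10 in 7c mice turned from −2.56 to 0.61 without 7c replicate 3 (range −2.89 to 0.61 over the mice left out). Over all genes the count tools differed for 7c in kidney, with 18 calls by DESeq2, 14 by the likelihood ratio test and 0 by the quasi-likelihood test, and the cause was not tested. With 6 against 4 libraries and low counts in kidney, changes of Ugt2b36 or Ugt1a6a rest on few reads. Levels per length moved beyond 1 SD in 12 of 40 cases with another length.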
